A study of Homo sapiens with 12 samples.

Results

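MS023, a small molecule that inhibits type I protein arginine methyltransferases (PRMTs), and knockout of PRMT1 were compared gene by gene in JJN3, a human multiple myeloma cell line. The quantity described is the interaction, the MS023 effect (MS023 minus DMSO) minus the PRMT1-KO effect (iPRMT1 minus isgCtrl). It is on the scale of log2(TPM+1), where TPM is a transcript abundance corrected for length that adds up to a fixed total in each sample, and a value of 1 means that the drug effect lies 1 log2 unit above the knockout effect. All 12 samples entered, 3 replicates in each of 4 groups, and 13256 of the 59276 gene symbols in the deposited table were tested, those with a group mean above 1 in at least 1 group. A gene was called at an adjusted p under 0.05 (limma, Benjamini-Hochberg over all genes tested) and an absolute difference above 0.48. A single value in brackets after a gene name is its interaction.

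The DMSO and MS023 groups were JJN3 cells kept for 3 days with solvent or with 10 µM MS023. The isgCtrl and iPRMT1 groups were JJN3 cells that carried Cas9 with an mCherry reporter and a doxycycline-inducible guide RNA with puromycin selection, a control guide or the single guide named iPRMT1_1, and doxycycline was given for 3 days. The arms therefore start from different cells, and each effect was measured against its own control. The study's methods state in general terms that its experiments were repeated independently. Nothing in the labels says whether the 3 replicates of a group came from separate cultures, so p-values measure the spread between these samples, which may be technical.

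PRMT1 is the main enzyme of the type I class, which places asymmetric dimethyl groups on arginine, often in glycine- and arginine-rich stretches of RNA-binding proteins and on histone H4. Other type I members are PRMT2, PRMT3, CARM1, PRMT6 and PRMT8, while PRMT5 and PRMT9 make symmetric dimethylarginine and PRMT7 makes monomethylarginine. An inhibitor blocks the activity of several of these enzymes and leaves the proteins in place, whereas a guide cuts a single gene and the protein is lost with its turnover. Myeloma is a cancer of plasma cells, the antibody-secreting end stage of B cells.

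Plasma cell markers had the highest summed level of the marker lists. It was 838 to 884 TPM in DMSO, 1380 to 1430 TPM in MS023, 818 to 843 TPM in isgCtrl and 804 to 812 TPM in iPRMT1. All 9 of 9 were above 1 in log2(TPM+1) in at least 1 sample, but SLAMF7 was under 1 in every isgCtrl and iPRMT1 sample. All 5 markers of stroma and epithelium were also above 1 in at least 1 sample, and they summed to between 94.0 and 118 TPM. Those of red cells summed to between 3.53 and 19.3 TPM. T cell markers summed to at most 1.25 TPM and markers of B cells before the plasma stage to at most 0.307 TPM in any sample, with CD3G and CD22 at 0. Replicates of a group correlated at r between 0.987 and 0.992 across genes. The files give no read depth.

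PRMT1 (chromosome 19, 49675786 to 49689029, + strand, GRCh38), the gene that the guide targets, was measured at 9.31, 9.36 and 9.39 in DMSO, 9.38, 9.45 and 9.36 in MS023, 9.76, 9.76 and 9.73 in isgCtrl and 8.24, 8.28 and 8.24 in iPRMT1. The iPRMT1 samples were the lowest of the 12, and the MS023 samples overlapped DMSO. The PRMT1-KO effect was -1.50 and the MS023 effect 0.043, and the interaction was 1.54 (SE 0.066, limma with Benjamini-Hochberg adjusted p = 3.68e-07). The transcript was still abundant after knockout, and reads from an edited transcript are counted like those from an intact one, so these values do not measure the protein.

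Drug and knockout differed at many genes, and in most of these the drug effect was the larger in size. The interaction was called for 3231 genes, 24.4% of those tested, of which 1284 (9.69%) were higher and 1947 (14.7%) lower. MS023 on its own changed 4139 genes (31.2%), 1554 higher (11.7%) and 2585 lower (19.5%). PRMT1-KO on its own changed 135 genes (1.02%), 79 higher (0.596%) and 56 lower (0.422%), and this count was 78 to 88 without isgCtrl replicate 2, without isgCtrl replicate 3 or without any 1 of the iPRMT1 replicates. The median absolute difference over all genes tested was 0.34 for MS023 and 0.109 for PRMT1-KO, beside a median SE of 0.105 for either effect and of 0.148 for the interaction.

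Of the called interactions, 60.3% were lower, a share that was 45.8% after median-ratio scaling and 51.3% after quantile normalization of the samples. The median interaction of all genes tested was -0.074, and 0.020 after median-ratio scaling, so a list whose median lies near 0 has no firm direction.

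By the calls of the single effects, 2788 of the 3231 genes (86.3%) had a called MS023 effect and no called PRMT1-KO effect. A further 372 (11.5%) had neither effect called on its own, 39 (1.21%) had only the PRMT1-KO effect called, 23 (0.712%) had both called in the same direction, and 9 (0.279%) both in opposite directions. The MS023 effect was larger in size than the PRMT1-KO effect in 3097 of the called genes (95.9%). It was also the larger in 10436 of all 13256 genes tested (78.7%) and in 73.2% of the genes with no called interaction. Of all genes tested, 4065 had only the MS023 effect called. Over all genes in which both effects were called in the same direction, 23 of 65 had a called interaction. For the others no difference was called, which does not show that the effects are equal.

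The controls themselves differed, and this sets the level from which each effect starts. The control difference (isgCtrl minus DMSO) was called for 1902 genes (14.3%), 946 higher (7.14%) and 956 lower (7.21%) in isgCtrl. It was called in 28.3% of the genes with a higher interaction, in 12.5% of those with a lower one and in 12.9% of those with no call. Among the 956 genes that start lower in isgCtrl, 247 (25.8%) had a higher interaction. Among 971 genes with a mean under 1 in both knockout-arm groups, 304 (31.3%) had a higher and 41 (4.22%) a lower interaction. These genes passed the filter only through a high DMSO or MS023 group, so their direction is in part set by the filter. Of 353 genes with a mean under 1 in both DMSO and MS023, 8 (2.27%) were higher and 18 (5.1%) lower. On this scale changes of such low genes are compressed. Among the 10845 genes whose controls differed by at most 0.48, 2582 (23.8%) were called, 897 higher and 1685 lower.

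The named letters below were looked for in promoters of RefSeq (GRCh38.p14), each 250 bases before and 50 after a gene start, on both strands. A promoter was found for 9691 of the genes tested (73.1%). The cell cycle homology region (CHR, TTTGAA) and the CCAAT box, which NF-Y binds, are known from promoters of genes used in G2 and mitosis. TTCCCGC is an E2F site, known from genes of S phase, and GAAANNGAA is the core of the site that interferon regulatory factors bind (IRF-type). Of all RefSeq promoters, 15.4% held the CHR, 35.7% CCAAT, 6.56% the E2F letters and 8.29% the IRF-type letters. A match is a stretch of letters and not a measured site.

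The promoters below are shown because their genes carry the 3 groups of interactions described first, and were chosen as the 2 called members of a list with the largest absolute interaction whose promoter holds the letters. They are given 5′ to 3′ on the strand of the gene, with the matched letters in capitals. In DLGAP5 and KIF14, a pair of spindle genes, the capitals mark the CHR and CCAAT:
DLGAP5 (chr14:55191536-55191835, minus strand): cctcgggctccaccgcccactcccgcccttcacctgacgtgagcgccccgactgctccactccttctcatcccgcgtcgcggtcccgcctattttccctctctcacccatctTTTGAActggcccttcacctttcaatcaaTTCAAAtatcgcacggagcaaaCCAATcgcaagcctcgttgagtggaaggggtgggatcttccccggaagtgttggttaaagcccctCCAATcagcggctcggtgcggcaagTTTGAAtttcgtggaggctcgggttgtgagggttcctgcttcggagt
KIF14 (chr1:200620702-200621001, minus strand): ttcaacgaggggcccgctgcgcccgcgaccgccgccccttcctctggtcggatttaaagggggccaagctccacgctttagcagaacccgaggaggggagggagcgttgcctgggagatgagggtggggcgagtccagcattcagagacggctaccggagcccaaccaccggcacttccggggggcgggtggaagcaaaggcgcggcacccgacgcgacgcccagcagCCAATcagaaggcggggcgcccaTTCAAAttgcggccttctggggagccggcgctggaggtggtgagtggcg
In PRIM1 and RFC3, replication genes, they mark the E2F letters:
PRIM1 (chr12:56752274-56752573, minus strand): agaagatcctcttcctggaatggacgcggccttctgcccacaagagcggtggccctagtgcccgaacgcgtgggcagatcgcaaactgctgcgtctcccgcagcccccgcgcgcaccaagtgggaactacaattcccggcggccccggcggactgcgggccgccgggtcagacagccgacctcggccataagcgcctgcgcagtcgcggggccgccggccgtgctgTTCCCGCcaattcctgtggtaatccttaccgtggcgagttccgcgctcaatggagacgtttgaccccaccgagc
RFC3 (chr13:33817899-33818198, plus strand): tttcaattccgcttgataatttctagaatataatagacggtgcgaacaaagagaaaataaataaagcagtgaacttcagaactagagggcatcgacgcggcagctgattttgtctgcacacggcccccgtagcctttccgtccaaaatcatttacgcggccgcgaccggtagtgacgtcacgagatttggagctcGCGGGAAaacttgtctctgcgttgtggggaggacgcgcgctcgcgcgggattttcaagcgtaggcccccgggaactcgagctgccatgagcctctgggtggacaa
In MX1 and IFI44, interferon-stimulated genes, they mark the IRF-type letters:
MX1 (chr21:41420308-41420607, plus strand): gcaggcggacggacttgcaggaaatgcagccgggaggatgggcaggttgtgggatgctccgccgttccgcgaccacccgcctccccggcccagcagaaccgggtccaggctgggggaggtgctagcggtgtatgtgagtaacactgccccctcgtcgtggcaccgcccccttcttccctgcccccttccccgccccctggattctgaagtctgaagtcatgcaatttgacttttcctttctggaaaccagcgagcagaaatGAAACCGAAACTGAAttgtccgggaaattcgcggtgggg
IFI44 (chr1:78649539-78649838, plus strand): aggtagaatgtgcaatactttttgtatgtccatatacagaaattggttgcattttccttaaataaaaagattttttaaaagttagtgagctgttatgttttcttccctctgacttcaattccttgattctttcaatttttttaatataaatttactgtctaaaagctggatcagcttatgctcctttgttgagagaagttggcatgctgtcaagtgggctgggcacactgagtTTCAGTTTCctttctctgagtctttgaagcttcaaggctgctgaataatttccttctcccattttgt
In DLGAP5 a CHR match begins 3 bases after the gene start and CCAAT 22 bases before it, and other matches lie upstream. In KIF14 the CHR match begins 1 base after the start and CCAAT, as in DLGAP5, 22 bases before it. The E2F match begins 24 bases before the start of PRIM1 and 55 bases before that of RFC3. In MX1 a pair of overlapping IRF-type matches begins 11 and 17 bases after the start, and in IFI44 the match begins 17 bases before it.

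Genes of cell division made up the most uniform block of lower interactions. Of 31 spindle and kinesin genes tested, 28 were called lower and 1 higher, with a median of -1.29 against -0.074 over all genes tested. Of 34 centromere and kinetochore genes 29 were lower and 0 higher (median -1.21), and of 44 mitotic kinases and checkpoint genes 33 were lower and 1 higher (median -1.12). The shares lower in the spindle, centromere and mitotic kinase lists were 90.3%, 85.3% and 75.0%, against a background of 14.7%. The median PRMT1-KO effect of these lists was -0.020, -0.018 and -0.060, and 0 of their members had a called PRMT1-KO effect. Their control differences were small as well, with medians of -0.055, -0.10 and 0.12.

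CENPA (chromosome 2, 26764289 to 26801067, + strand), the histone H3 variant that marks centromeres, was measured at 5.55, 5.37 and 5.38 in DMSO, 3.22, 3.07 and 3.03 in MS023, 5.60, 5.39 and 5.52 in isgCtrl and 5.46, 5.53 and 5.62 in iPRMT1. The MS023 samples were the 3 lowest and did not overlap the other 9, which lay together. The MS023 effect was -2.33 and the PRMT1-KO effect 0.037, and the interaction was -2.36 (SE 0.11, limma with Benjamini-Hochberg adjusted p = 7.15e-07).

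DLGAP5, a spindle microtubule protein whose promoter is printed above, was measured at 5.42, 5.38 and 5.40 in DMSO, 2.97, 2.99 and 3.12 in MS023, 5.05, 5.02 and 5.17 in isgCtrl and 5.06, 5.09 and 5.10 in iPRMT1. The same split was seen, with the MS023 samples far under every other sample. For DLGAP5 the interaction was -2.37 (SE 0.082, limma with Benjamini-Hochberg adjusted p = 1.51e-07).

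CCNB1, the mitotic cyclin B1, was at 7.27, 7.29 and 7.29 in DMSO, 5.70, 5.69 and 5.55 in MS023, 7.47, 7.44 and 7.54 in isgCtrl and 7.47, 7.58 and 7.57 in iPRMT1. No MS023 sample overlapped any other group, and the iPRMT1 samples overlapped isgCtrl. For CCNB1 the interaction was -1.69 (SE 0.082, limma with Benjamini-Hochberg adjusted p = 7.15e-07).

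PSRC1 (-2.45), a spindle protein, and the kinesins KIF20A (-1.70) and KIF23 (-1.58) were among the spindle genes with the lowest interactions. In the centromere list SPC25 (-2.04) and NDC80 (-1.66), parts of the complex that holds microtubules, and CENPH (-2.02) and CENPE (-1.79) followed CENPA. Among kinases and their partners NEK2 (-2.01), CDCA3 (-1.86), CCNB2 (-1.70), PLK4 (-1.60) and CDC20 (-1.55), the activator of the anaphase-promoting complex, were lower. The 2 members that were called higher were KIF1B (0.60), a kinesin of organelle transport, and LIN37 (0.52), a subunit of the DREAM complex that represses cell cycle genes. LIN37 kept its call in 13 of 19 alternatives.

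DNA replication genes went in the same direction. Of 40 tested, 35 were lower and 0 higher (median interaction -0.865), and of 41 DNA repair and Fanconi genes 26 were lower and 0 higher (median -0.67). The shares lower were 87.5% and 63.4%, against a background of 14.7%. PRIM1, the catalytic subunit of primase, was measured at 6.01, 5.95 and 5.97 in DMSO, 4.13, 3.97 and 4.14 in MS023, 5.90, 5.85 and 5.86 in isgCtrl and 5.74, 5.75 and 5.72 in iPRMT1. The MS023 samples lay far under every other sample, and the iPRMT1 samples were slightly under isgCtrl. For PRIM1 the interaction was -1.77 (SE 0.076, limma with Benjamini-Hochberg adjusted p = 3.73e-07), with a PRMT1-KO effect of -0.13 that was not called.

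The clamp loader subunit RFC3 (-1.43), the kinase CDC7 (-1.42) that starts origins, the ligase LIG1 (-1.34) and the ribonucleotide reductase subunit RRM1 (-1.17) followed. In the repair list FANCI (-1.51), TOPBP1 (-1.28), RPA3 (-1.24), BRCA2 (-1.23), CHEK1 (-1.19) and POLQ (-1.19) had the lowest values.

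The letters found in the promoters differed between these lists. The CHR stood in 20 of 28 spindle promoters (71.4%), in 16 of 34 of the mitotic kinases (47.1%) and 12 of 29 of the centromere genes (41.4%), but in 2 of 35 replication promoters (5.71%), beside 9.64% of all tested genes with a promoter. The E2F letters stood in 17 of 35 replication promoters (48.6%) and 16 of 33 repair promoters (48.5%), but in 1 of 28 spindle promoters (3.57%), beside 10.7% of all. CHR and CCAAT together were found in 18 of 28 spindle promoters (64.3%) and in 4.14% of all.

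The share called lower was also read over all genes with a promoter. Of 934 genes with the CHR 240 were lower (25.7%), against 1270 of 8757 without it (14.5%). Leaving out the 5 cell division and repair lists, the shares were 22.2% of 880 and 13.8% of 8652. Of 401 genes with CHR and CCAAT 126 were lower (31.4%), and of 1035 with the E2F letters 212 (20.5%). For CCAAT alone the shares hardly differed, 16.2% of 3650 with and 15.2% of 6041 without it. These shares are descriptions with no test, and the base composition of the promoters was not taken into account.

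Cyclins of G1 and inhibitors of cyclin-dependent kinases moved both ways, with 5 of 19 higher (26.3%) and 6 lower (31.6%). The background was 9.69% higher and 14.7% lower. CCND2, cyclin D2, which drives entry into the cell cycle, was measured at 5.97, 6.10 and 5.96 in DMSO, 9.70, 9.75 and 9.69 in MS023, 5.16, 5.16 and 5.03 in isgCtrl and 5.23, 5.38 and 5.50 in iPRMT1. The MS023 samples stood far above all others, with the isgCtrl and iPRMT1 groups lower than DMSO. The MS023 effect was 3.71 and the PRMT1-KO effect 0.26, and the interaction was 3.45 (SE 0.11, limma with Benjamini-Hochberg adjusted p = 1.3e-07).

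CDKN2B (1.35), CDKN1C (1.15) and CDKN1A (0.87), which all inhibit cyclin-dependent kinases, and CCND1 (1.31), cyclin D1, were higher as well. The lower members were CDKN3 (-2.23), a phosphatase that acts on cyclin-dependent kinases, CDKN2C (-1.74), RB1 (-1.22), CCNE2 (-1.02), CDK2 (-0.84) and CDKN1B (-0.61). RB1, the retinoblastoma protein that holds back E2F, was at 5.55, 5.45 and 5.35 in DMSO, 4.19, 4.23 and 4.34 in MS023, 5.56, 5.48 and 5.52 in isgCtrl and 5.52, 5.44 and 5.66 in iPRMT1. Its MS023 samples did not overlap the other 9.

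Of 51 listed interferon-stimulated genes 40 were tested, and 23 were called higher (57.5%) and 1 lower (2.5%). The background was 9.69% higher and 14.7% lower. The interferon list had a median interaction of 0.821. This was the highest median of the lists, but the place was lost over members above 1 in every sample, where it was 0.348 against 0.731 for the sterol list. The chemokine list had the highest median with a pseudocount of 0.1 and without isgCtrl replicate 1. MS023 raised 30 of the 40 and lowered 2, and PRMT1-KO raised 5, with a median PRMT1-KO effect of 0.027. The list also started lower in the guide-carrying control cells, since 19 of 40 members were called lower in isgCtrl than in DMSO and 1 higher (median control difference -0.464). The part of this lower start in the interactions was not tested.

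MX1, an antiviral GTPase, was measured at 2.16, 2.42 and 2.09 in DMSO, 3.83, 3.65 and 4.07 in MS023, 0.69, 0.35 and 0.45 in isgCtrl and 0.64, 0.48 and 0.41 in iPRMT1. The MS023 samples were the highest, DMSO lay between, and both knockout-arm groups were under 1 and overlapped. MX1 thus passed the filter only through DMSO and MS023, so its direction is in part set by the filter. Changes in the knockout arm are compressed at such low values. The MS023 effect was 1.63, the PRMT1-KO effect 0.0089 and the control difference -1.73, and the interaction was 1.62 (SE 0.19, limma with Benjamini-Hochberg adjusted p = 0.000119).

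ISG15, a ubiquitin-like modifier, began at the same level in both arms and was measured at 3.77, 4.02 and 3.98 in DMSO, 5.42, 5.49 and 5.16 in MS023, 3.83, 3.79 and 3.94 in isgCtrl and 3.73, 3.996 and 3.79 in iPRMT1. Only the MS023 samples stood above the rest, while DMSO, isgCtrl and iPRMT1 overlapped. For ISG15 the interaction was 1.44 (SE 0.15, limma with Benjamini-Hochberg adjusted p = 6.66e-05), and its control difference was -0.071. It was named after its values were seen, as an example with like controls.

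IRF7, the master regulator of interferon production, was at 2.64, 2.69 and 2.87 in DMSO, 4.19, 4.35 and 4.64 in MS023, 2.41, 2.30 and 2.56 in isgCtrl and 2.49, 2.60 and 2.47 in iPRMT1. The MS023 group lay above all others and iPRMT1 overlapped isgCtrl. For IRF7 the interaction was 1.56 (SE 0.16, limma with Benjamini-Hochberg adjusted p = 6.66e-05).

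GBP2 (1.79), OASL (1.70), OAS2 (1.55) and IFI44 (1.48) were further members of large interaction.

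The IRF-type letters were found in 21 of 32 promoters of the interferon list (65.6%) and in 6.64% of all tested genes with a promoter. Over all genes with these letters 88 of 643 were called higher (13.7%), against 787 of 9048 without them (8.70%). Without the interferon and chemokine lists the shares were 11.4% of 615 and 8.59% of 9022.

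Chemokines and cytokines held several of the largest interactions of all, with 19 of 29 higher and 2 lower (median 0.706, and 0.423 with no filter on low values). These are 65.5% and 6.9%, against a background of 9.69% and 14.7%. Of the 29, 11 were called lower in isgCtrl than in DMSO and 2 higher (median control difference -0.325), and the part of this lower start in the interactions was not tested. CXCL10, the interferon-induced chemokine that attracts T cells, was measured at 4.48, 4.43 and 4.41 in DMSO, 7.59, 7.55 and 7.62 in MS023, 1.10, 0.99 and 0.31 in isgCtrl and 0.82, 0.65 and 0.74 in iPRMT1. The 4 groups fell into 3 levels, MS023 at the top, DMSO in the middle and both knockout-arm groups overlapping at about 1 or under. Both knockout-arm means of CXCL10 were under 1, so its direction is in part set by the filter. Changes in the knockout arm are compressed at such low values. The MS023 effect was 3.15, the PRMT1-KO effect -0.06 and the control difference -3.64, and the interaction was 3.21 (SE 0.23, limma with Benjamini-Hochberg adjusted p = 6.39e-06).

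IL10, an anti-inflammatory cytokine, was measured at 0.58, 0.87 and 0.71 in DMSO, 3.63, 3.70 and 3.91 in MS023, 2.33, 2.24 and 2.42 in isgCtrl and 1.82, 1.83 and 1.71 in iPRMT1. It rose with MS023 and fell with PRMT1-KO, from a control level that was higher in isgCtrl than in DMSO. The effects were 3.03 and -0.54, both called, and the interaction was 3.57 (SE 0.13, limma with Benjamini-Hochberg adjusted p = 1.81e-07).

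CXCL9 (3.24), which shares the receptor of CXCL10, and CCL4 (2.80), which attracts monocytes and T cells, were also higher. CCL3L3 (3.45) and CCL4L2 (1.81) have near-identical copies, so reads may have been split among them. The lower members were CXCR4 (-0.83), the receptor that keeps plasma cells in bone marrow, and CXCL16 (-0.61), called in 12 of 19 alternatives. The NF-kB letters GGANTTTCC, looked for in the same way, stood in 3 of 22 chemokine promoters (13.6%) and in 1.58% of all tested genes with a promoter.

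Antigen presentation genes had small median interactions. Of 21 class I and peptide loading genes 4 were higher, or 19.0% against a background of 9.69%, and 0 lower (median 0.141), namely CALR (1.08), ERAP2 (0.83), PDIA3 (0.56) and HLA-C (0.52). Of the same 21, 9 were called lower in isgCtrl than in DMSO and 0 higher (median control difference -0.422). The part of this lower start in the class I interactions was not tested. Of 18 class II genes 0 were higher and 4 lower, or 22.2% against a background of 14.7% (median -0.181), namely HLA-DOA (-0.99), RFXAP (-0.88), CIITA (-0.61), the class II master activator, and HLA-DMB (-0.51). In the class II list MS023 raised 4 members and lowered 2, PRMT1-KO raised 4 and lowered 0, and the median effect was 0.274 for MS023 and 0.41 for PRMT1-KO. After median-ratio scaling 2 class II genes were called higher and 3 lower, with a median of -0.072. The difference between the classes was not tested.

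HLA-DOA, a class II chaperone, was at 2.79, 2.74 and 3.03 in DMSO, 2.12, 2.16 and 2.70 in MS023, 3.78, 4.07 and 3.88 in isgCtrl and 4.37, 4.39 and 4.37 in iPRMT1. The MS023 samples were the lowest and iPRMT1 the highest, and the control difference was 1.06. For HLA-DOA the interaction was -0.99 (SE 0.21, limma with Benjamini-Hochberg adjusted p = 0.0046), with effects of -0.52 for MS023 and 0.47 for PRMT1-KO, the latter not called.

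Genes of sterol and fatty acid synthesis were higher from controls that differed little. Of 33 tested, 19 were higher (57.6%) and 2 lower (6.06%), against a background of 9.69% and 14.7% (median 0.603). The median PRMT1-KO effect was 0.012, the median control difference -0.058, and 0 members had a called PRMT1-KO effect. HMGCS1, which makes HMG-CoA for the mevalonate pathway, was at 5.79, 5.70 and 5.70 in DMSO, 7.69, 7.60 and 7.85 in MS023, 5.64, 5.62 and 5.76 in isgCtrl and 5.70, 5.59 and 5.78 in iPRMT1. The MS023 samples stood above every other sample, and the groups of the other 9 overlapped. For HMGCS1 the interaction was 1.97 (SE 0.11, limma with Benjamini-Hochberg adjusted p = 1.54e-06).

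INSIG1 (1.81), which holds the sterol sensor in the endoplasmic reticulum, MSMO1 (1.86), MVD (1.53), TM7SF2 (1.41) and SQLE (1.37), the last the squalene epoxidase, were higher as well. SREBF1, the transcription factor of fatty acid synthesis, went the other way and was at 6.45, 6.35 and 6.38 in DMSO, 5.64, 5.62 and 5.67 in MS023, 6.19, 5.95 and 5.80 in isgCtrl and 6.06, 6.08 and 6.06 in iPRMT1. Its MS023 samples lay under the other 9, and its interaction was -0.84. ACSS2 (-0.74), an acetyl-CoA synthetase, was the other lower member. The sterol response letters TCACNCCAC were found in 1 of 27 promoters of the list (3.70%) and in 1.05% of all tested genes with a promoter.

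In the plasma cell list 11 of 23 genes were higher and 4 lower (median 0.577, and 0.282 with no filter on low values). These are 47.8% and 17.4%, against a background of 9.69% and 14.7%. SLAMF7, the surface receptor targeted by elotuzumab, was measured at 3.36, 3.28 and 3.46 in DMSO, 5.80, 5.62 and 5.78 in MS023, 0.60, 0.52 and 0.20 in isgCtrl and 0.73, 0.39 and 0.51 in iPRMT1. MS023 lay above DMSO, and both knockout-arm groups were under 1 and overlapped. SLAMF7 thus passed the filter only through DMSO and MS023, so its direction is in part set by the filter. Changes in the knockout arm are compressed at such low values. The MS023 effect was 2.37, the control difference -2.92, and the interaction was 2.27 (SE 0.17, limma with Benjamini-Hochberg adjusted p = 7.52e-06).

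TNFRSF13B (2.16), the receptor TACI, ITGB7 (1.31), CD28 (1.29) and MZB1 (1.38) were higher, and each began lower in isgCtrl than in DMSO (control differences -1.62, -2.20, -1.87 and -5.15). BCL6 (1.34), the germinal centre repressor, was called in 7 of the 18 alternatives that tested it. The lower members were NSD2 (-0.74), the histone methyltransferase of the t(4;14) translocation, GPRC5D (-0.68), CD38 (-0.60) and CD48 (-0.51). GPRC5D was called in 5 and CD38 in 12 of the 18 alternatives that tested them.

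Secretory and lysosomal genes leaned higher. Of 27 genes of the unfolded protein response 7 were higher (25.9%) and 1 lower (3.7%), against a background of 9.69% and 14.7%. The median was 0.288. HERPUD1 (1.68), DNAJB9 (1.62), the chaperone HSPA5 (0.82) and the sensor ERN1 (0.80) were among the higher members, and DERL3 (-0.50) was lower. After median-ratio scaling 11 were higher and 0 lower, beside 1743 higher and 1470 lower of the 13256 genes tested. HERPUD1, a member of the degradation complex of the endoplasmic reticulum, was at 5.58, 5.67 and 5.53 in DMSO, 7.57, 7.52 and 7.69 in MS023, 5.08, 5.04 and 5.22 in isgCtrl and 5.38, 5.48 and 5.42 in iPRMT1. Its MS023 samples stood apart, and iPRMT1 lay between isgCtrl and DMSO. For HERPUD1 the interaction was 1.68 (SE 0.098, limma with Benjamini-Hochberg adjusted p = 1.87e-06).

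Of 43 lysosomal genes 16 were higher (37.2%) and 2 lower (4.65%), against a background of 9.69% and 14.7%. The median was 0.363. The higher members were led by CD68 (2.35), CTSB (1.95), LGMN (1.51), CTSA (1.29) and PSAP (1.14). NAGLU (-0.67) and MAN2B1 (-0.52, called in 5 of 19 alternatives) were lower. In both lists several members began lower in isgCtrl, 8 of 27 and 19 of 43, and 0 began higher. The letters CACGTG, the core of the site of the lysosomal factor TFEB, stood in 9 of 30 lysosomal promoters (30.0%) and in 10.4% of all.

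LGMN, the lysosomal protease legumain, is a gene that both treatments raised, and was at 5.54, 5.57 and 5.69 in DMSO, 7.89, 7.88 and 7.89 in MS023, 3.85, 3.91 and 3.79 in isgCtrl and 4.65, 4.61 and 4.62 in iPRMT1. Each treated group lay above its own control, and the controls differed by -1.75. The effects were 2.29 for MS023 and 0.78 for PRMT1-KO, and the interaction was 1.51 (SE 0.077, limma with Benjamini-Hochberg adjusted p = 9.91e-07). CCL3L3 (3.94 and 0.50), GJB2 (2.54 and 0.61), EDNRB (2.57 and 0.96), MVP (2.05 and 0.58) and the noncoding DGCR11 (2.68 and 0.62) were also raised by both, MS023 first, with a called interaction. Of the 23 genes with both effects called the same way, 15 had a higher and 8 a lower interaction.

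Genes that moved in opposite directions were few, 9 in all, with IL10, COL6A2, SLC43A2 and COTL1 higher and SYNDIG1, FEZ1, PACSIN3, EPHB2 and LINC01055 lower. SYNDIG1, a synapse protein, was at 3.01, 2.86 and 2.93 in DMSO, 1.51, 1.34 and 1.86 in MS023, 1.64, 1.33 and 1.57 in isgCtrl and 2.31, 2.31 and 2.39 in iPRMT1. MS023 brought it to the level of isgCtrl, and iPRMT1 lay between isgCtrl and DMSO with no overlap. The effects were -1.36 and 0.82, the control difference -1.42, and the interaction was -2.18 (SE 0.18, limma with Benjamini-Hochberg adjusted p = 1.23e-05).

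EPHB2, an ephrin receptor, had like controls and was at 3.11, 2.96 and 3.14 in DMSO, 1.83, 1.74 and 2.16 in MS023, 3.06, 3.03 and 3.14 in isgCtrl and 3.54, 3.60 and 3.59 in iPRMT1. MS023 was below and iPRMT1 above all control samples. The effects were -1.17 and 0.50, and the interaction was -1.66 (SE 0.14, limma with Benjamini-Hochberg adjusted p = 1.64e-05). COL6A2, a collagen chain, was at 0.99, 0.83 and 1.07 in DMSO, 1.57, 1.30 and 1.71 in MS023, 2.36, 2.59 and 1.78 in isgCtrl and 0.92, 1.06 and 1.39 in iPRMT1. Its iPRMT1 and DMSO samples lay close together and isgCtrl stood above both, with an interaction of 1.69. Control differences were called in 6 of the 9 genes.

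Among genes moved by the knockout alone, PRMT1 itself was higher in the interaction and S100A8, GAGE2A, HMGN2P22, GAGE12F and PAGE5 were lower. S100A8, a calcium-binding protein of myeloid cells, was at 5.37, 5.63 and 5.60 in DMSO, 5.77, 5.68 and 5.72 in MS023, 3.46, 3.18 and 3.08 in isgCtrl and 5.70, 5.47 and 6.03 in iPRMT1. The isgCtrl samples stood under the other 9, which lay together, so iPRMT1 was at the level of the DMSO arm. The PRMT1-KO effect was 2.49, the control difference -2.29, and the interaction was -2.30 (SE 0.20, limma with Benjamini-Hochberg adjusted p = 2.17e-05). In the myeloid marker list, 1 of 5 markers was above 1 in log2(TPM+1) in any sample, and the list summed to at most 3.22 TPM in MS023, 1.18 TPM in isgCtrl and 0.206 TPM in iPRMT1.

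GAGE2A, a cancer-testis antigen with near-identical copies, was at 1.96, 1.89 and 1.44 in DMSO, 2.60, 1.08 and 2.42 in MS023, 0, 0.13 and 0.42 in isgCtrl and 4.67, 3.88 and 4.31 in iPRMT1. The iPRMT1 samples were the highest, isgCtrl the lowest, and the DMSO and MS023 samples overlapped. For GAGE2A the interaction was -3.84 (SE 0.51, limma with Benjamini-Hochberg adjusted p = 0.000318), and reads may have been split among copies. GAGE12F (-1.82), of the same family, and PAGE5 (-1.62), a related cancer-testis gene, followed.

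Other PRMT genes had smaller interactions than PRMT1. PRMT3 was at 4.76, 4.62 and 4.68 in DMSO, 3.61, 3.49 and 3.52 in MS023, 4.87, 4.88 and 4.83 in isgCtrl and 4.79, 4.61 and 4.69 in iPRMT1. Its MS023 samples were the lowest and the other groups lay between 4.61 and 4.88, with an interaction of -0.98 (SE 0.088, limma with Benjamini-Hochberg adjusted p = 2.47e-05). PRMT9 (-0.85) and PRMT6 (-0.49, called in 12 of 19 alternatives) were lower too. PRMT2 (-0.10), CARM1 (0.12), PRMT5 (-0.18) and PRMT7 (-0.25) were not called, and PRMT8 was under the limit for testing.

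RNA-binding proteins of the hnRNP, SR and RGG families, which include well-known PRMT1 substrates, leaned lower, with 13 of 43 called lower and 0 higher (median -0.336). The share lower was 30.2% against a background of 14.7%. After median-ratio scaling 6 of the 43 were lower and 1 higher, beside 1470 lower and 1743 higher of the 13256 genes tested. The share lower was then near that of all genes. SRSF10 (-0.79), SRSF7 (-0.71), HNRNPA3 (-0.69), HNRNPA2B1 (-0.68) and SRSF1 (-0.64), which bind pre-mRNA and act in its splicing, were among the members called lower.

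Immediate early and ERK feedback genes were higher in 12 of 27 and lower in 2 (median 0.344, and 0.225 with no filter on low values). These are 44.4% and 7.41%, against a background of 9.69% and 14.7%. MS023 raised 9 members and lowered 3. Of the 27, 8 were called higher in isgCtrl than in DMSO and 3 lower (median control difference 0.314). The part of these unlike starts in the interactions was not tested. DUSP5, a phosphatase that acts on ERK, was at 3.94, 4.02 and 4.21 in DMSO, 7.45, 7.48 and 7.60 in MS023, 3.34, 3.28 and 3.25 in isgCtrl and 3.59, 3.54 and 3.54 in iPRMT1. The MS023 samples stood far above all others. For DUSP5 the interaction was 3.19 (SE 0.10, limma with Benjamini-Hochberg adjusted p = 1.36e-07), with a PRMT1-KO effect of 0.27 that was not called. KLF6 (1.46), PHLDA1 (1.32), ATF3 (1.27), SPRED1 (1.21) and FOS (1.02) were higher, and SPRY1 (-0.69) and SPRY2 (-0.58, called in 13 of 19 alternatives) lower. For ATF3 neither effect was called, at 0.25 for MS023 and -1.02 for PRMT1-KO, and the interaction lost its call with no filter on low values and without isgCtrl replicate 2. The limma adjusted p of ATF3 reached 0.0553 at most over the 19 alternatives.

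In the NF-kB list 6 of 24 were higher (25.0%) and 3 lower (12.5%), against a background of 9.69% and 14.7%. The higher members were led by CD40 (2.05), TRAF1 (1.31) and TNIP2 (1.08), and MALT1 (-0.88) was the lowest. After median-ratio scaling or quantile normalization 7 were higher and 1 lower.

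Of 24 genes of the BCL2 family and caspases 5 were higher (20.8%) and 2 lower (8.33%). The background over all genes tested was 9.69% higher and 14.7% lower. The pro-apoptotic BMF (1.66) and BAK1 (0.68), the survival factors BCL2L1 (0.90) and MCL1 (0.71) and the caspase 8 regulator CFLAR (1.30) were higher. BID (-0.62) and APAF1 (-0.50, called in 14 of 19 alternatives) were lower. After median-ratio scaling 9 members were higher and 1 lower. In the ATF4 list 5 of 28 were higher (17.9%) and 2 lower (7.14%). TGATGNAA, part of the site of ATF4 with C/EBP factors, stood in 7 of 24 promoters of this list (29.2%) and in 1.57% of all. In the glycolysis and hypoxia list 6 of 27 were higher (22.2%), led by ADM (1.99), and 1 was lower (3.7%), PFKP (-1.28). Of 29 replication-dependent histones 5 were higher (17.2%) and 0 lower, and their median of 0.41 was 0.0969 with no filter on low values.

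Both shares were under the background of 9.69% higher and 14.7% lower in the lists of oxidative phosphorylation, ribosomal proteins, ribosome biogenesis, proteasome and heat shock genes. Of 48 nuclear genes of oxidative phosphorylation 4 were lower and 0 higher, of 78 cytosolic ribosomal proteins 3 were lower and 0 higher, of 40 ribosome biogenesis genes 3 were lower and 1 higher, of 31 proteasome genes 2 were higher and 0 lower, and of 25 heat shock genes 3 were lower and 1 higher. All 13 mitochondrially encoded genes had a positive interaction, 3 of them called, or 23.1% (MT-ND6 0.77, MT-ND5 0.66 and MT-ND3 0.50). Of 10 immunoglobulin constant genes 2 were higher (IGHE 1.35 and IGLL5 0.79) and 1 lower (IGHG4 -0.84). Of 17 S100, annexin and galectin genes 4 were higher, or 23.5%, among them ANXA1 (2.16) and LGALS1 (1.37), and S100A8 was lower. The shares called higher in these last lists lay above the background, each on few genes. In the S100, annexin and galectin list 7 of 17 were called lower in isgCtrl than in DMSO and 0 higher (median control difference -0.957). The control difference of LGALS1 was -2.65. The part of this lower start in the interactions was not tested.

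The largest interaction of all was that of PRSS2, a trypsinogen with near-identical copies, which was at 0.83, 0.98 and 1.15 in DMSO, 6.72, 6.55 and 6.57 in MS023, 0.46, 0.19 and 0 in isgCtrl and 0.29, 0.48 and 0.14 in iPRMT1. MS023 stood far above the other groups, and for PRSS2 the interaction was 5.54 (SE 0.18, limma with Benjamini-Hochberg adjusted p = 1.39e-07). PRSS2 passed the filter only through its MS023 mean, so its direction is in part set by the filter. Changes in the knockout arm are compressed at such low values. PCDH1 (2.65), a protocadherin, and FN1 (2.64, SE 0.72), fibronectin, closed the 10 highest. SERPINA3, an acute-phase inhibitor, had the lowest value and was at 4.61, 5.22 and 3.78 in DMSO, 3.67, 2.97 and 0.88 in MS023, 0.24, 0.22 and 3.78 in isgCtrl and 4.34, 3.11 and 3.16 in iPRMT1. The groups overlapped, with isgCtrl replicate 3 far above the other 2 isgCtrl samples, and the call held in 6 of the 18 alternatives that tested it. The interaction of SERPINA3 was -4.15 with an SE of 1.40, and it was -3.34 and not called without MS023 replicate 3. NKD2 (-2.49), an inhibitor of Wnt signalling, OPN3 (-2.42), NMU (-2.41) and CCDC18 (-2.34) were the other genes among the 10 lowest. CREB3 and POLRMT (both 0.48) lay just inside the threshold on size, and CTPS2 and TUT7 (both -0.48) just outside it.

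Base composition went with the interaction. In 4 bins of equal size by transcript GC content, from 30.7% to 41.6% GC in the lowest and from 56.8% to 76.0% in the highest, the median interaction of protein-coding genes was -0.264, -0.137, -0.00084 and 0.080. In the lowest bin 25.1% of 2818 genes were lower and 3.23% higher, and in the highest bin 11.7% were lower and 14.8% higher. Leaving out the cell division, repair, interferon and chemokine lists, the bin medians were -0.255, -0.129, 0.0026 and 0.084. The median control difference also rose with GC, at -0.076, 0.041, 0.135 and 0.161. Across 11271 genes, which are not independent, Spearman's rho of the interaction was 0.273 with GC content and -0.139 with the length of the gene. Whether library preparation had a part in this was not tested.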

How the data were processed

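The authors deposited gene-level values as log2(TPM+1), made, by their Methods and processing notes, with FastQC, Trimmomatic, STAR (hg38, GENCODE V35) and Salmon. Every sample sums to an equal TPM total, the read depth is therefore hidden, and limma was used in place of count models. The values were used as deposited, with the pseudocount of 1 they hold, and a difference understates the change of genes with low values.

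Groups came from the samples' labels. A model of 4 group means was fitted to all 12 samples with limma 3.58.1 in R 4.3.3 (eBayes without trend), and the interaction, both effects and the control difference were contrasts of this fit, with Benjamini-Hochberg adjustment over 13256 genes. Thresholds follow the study's Methods. The code was tested on simulated data.

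Gene positions and transcript GC are from GENCODE v44 on GRCh38, with 12126 of 13256 symbols matched directly and 145 by a synonym. Promoters are from RefSeq (GRCh38.p14). Members and gene lists were chosen with earlier results of these data known, so lists carry no test. Named were the PRMT genes, the 10 highest and 10 lowest called protein-coding genes with a mean of at least 3 in a group, up to 6 called members of each list in each direction, the 6 largest of each class of effects and the genes nearest the threshold, and ISG15 was added. Alternatives were a pseudocount of 0.1, other filters, scalings and thresholds, a trend, a replicate block and each sample left out. A few items are not reported here.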

Additional observations from a re-analysis of the deposited data

Results flagged for a closer look

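The effects of MS023 and of PRMT1-KO differed by the test of the difference itself for 3231 genes, the interactions described above. The 2 effects were measured in different starting cells, and the difference between drug and knockout cannot be told apart from a difference between untransduced and guide-carrying cells in their response.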

How the results depend on the processing

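The number of called interactions, 3231, was between 2675 and 3316 under other filters, pseudocounts, scalings and a trend, 3003 to 3206 with each sample left out, 4719 with no threshold on size and 921 with an absolute difference above 1. No called interaction changed sign under any alternative that tested it, and 1807 (55.9%) were called in all 19 that kept the thresholds. Only 2591 of the 3231 were tested where a value above 1 was required in every sample, and untested genes counted as not called. With each sample left out in turn, 2379 (73.6%) were called every time. With the replicate block 3215 were called, 3102 of them shared. Deviations of same-numbered samples from their group means correlated at a mean r of -0.018, from -0.215 to 0.0967. Other pairs had a mean r of 0.0090, a value tied to the first because deviations sum to 0 within a group. No pairing by number was seen, but this cannot show that there was none. The block is given here only. MS023 genes numbered 7184 with no threshold on size and 1095 above 1. PRMT1-KO genes numbered 135, and 78 to 130 with each sample left out, lowest without isgCtrl replicate 2 (78), with 87 without isgCtrl replicate 3 and 84, 85 and 88 without iPRMT1 replicates 1, 2 and 3. They numbered 296 with no threshold on size, 13 above 1, 76 from the 6 samples compared alone and 98 with the replicate block. Control differences numbered 4917 and 389 under these 2 thresholds. The causes of these moves beyond the thresholds themselves and the fewer samples were not tested. The threshold of 0.48 stands beside a median SE of 0.148, so with 3 replicates a group small interactions may be missed.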
